A study of Mus musculus with 8 samples.

Results

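The genes described here are 8 transcripts of the anterior pituitary lobe, read in RNA from the neighbouring neuro-intermediate lobe of the mouse pituitary. They were chosen by name out of 48526 listed genes: the hormone genes Gh, Prl, Tshb, Lhb, Fshb and Cga, the transcription factor gene Pou1f1 and the receptor gene Ghrhr. All 8 of 8 passed the filter on low counts that left 15580 genes for testing. The study asked what Creb3l2 and XBP1 do in pituitary POMC cells, and the 8 genes address a side question, namely how much anterior lobe transcript each library carried and whether that amount moved with genotype or between replicates.

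Each library was made from a pool of 5 neuro-intermediate lobes of male C57B6 mice aged 3 months, and 2 libraries made up each of 4 groups. WT mice carried no transgene. ACreb3l2 and AXBP1 mice each carried 1 transgene for an acidic dominant negative protein, which pairs with the leucine zipper factor it is named for and keeps it from DNA, and ACreb3l2/AXBP1 mice carried both. Each transgene was driven by the rat POMC promoter, which is active in melanotropes and in the corticotropes of the anterior lobe, and the study states that 2 stable lines were selected per transgene and that data are shown for 1. Nothing states which animals entered which pool, so the p-values given here measure the spread between these libraries.

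The gland has a front part, the anterior lobe, whose cells each make mainly 1 hormone. Somatotropes make growth hormone (Gh), lactotropes prolactin (Prl) and thyrotropes the beta chain of thyrotropin (Tshb), and all of them descend from cells that need the POU homeodomain factor Pou1f1. Gonadotropes do not need it, and make the beta chains of luteinizing hormone (Lhb) and follicle-stimulating hormone (Fshb). Cga is the alpha chain that thyrotropes and gonadotropes share, since each of their hormones is an alpha chain paired with its own beta chain. Ghrhr is the receptor through which hypothalamic growth hormone-releasing hormone acts on somatotropes. The intermediate lobe holds melanotropes, which make POMC, and the neural lobe holds axons and glia, so none of these 8 transcripts is a known product of the cells for which the lobe was taken.

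Pou1f1 protein binds the Prl promoter and its own gene's promoter, so the 250 bases before the RefSeq start of both genes are shown, on GRCm38.p6, in the direction of transcription. Capitals mark each match to the motif TATNCAT or its reverse complement ATGNATA, the core of a Pou1f1 site. The Prl window is chr13:27057320-27057569 and the Pou1f1 window chr16:65520262-65520511, both on the plus strand.
Prl: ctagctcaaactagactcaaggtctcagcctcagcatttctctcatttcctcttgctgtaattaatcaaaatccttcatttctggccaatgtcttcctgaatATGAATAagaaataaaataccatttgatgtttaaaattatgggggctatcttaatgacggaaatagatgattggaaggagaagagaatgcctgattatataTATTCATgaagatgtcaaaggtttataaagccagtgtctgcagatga
Pou1f1: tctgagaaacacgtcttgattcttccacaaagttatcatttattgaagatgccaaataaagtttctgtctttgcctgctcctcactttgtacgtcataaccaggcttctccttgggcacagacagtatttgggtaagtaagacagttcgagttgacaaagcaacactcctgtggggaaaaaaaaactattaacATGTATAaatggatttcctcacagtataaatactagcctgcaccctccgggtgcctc

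Prl had 2 matches, 148 to 142 bases before the start on the opposite strand and 47 to 41 bases before it on the same strand. Pou1f1 had 1 match, 57 to 51 bases before the start on the opposite strand, in the first of its 2 listed windows. A promoter window was matched for 6 of the 8 genes, in 7 windows, and the Tshb, Lhb, Fshb and Cga windows held no match. The motif occurred in 2603 of 32851 promoters of this length (7.92%). A second motif, CAAGGTCA or TGACCTTG, the core bound by the gonadotrope factor Nr5a1, was added after the values of the genes were seen. It occurred in 438 promoters (1.33%), and Lhb had 1 match, TGACCTTG, 129 to 122 bases before its RefSeq start. That start lies inside the GENCODE gene, and by GENCODE the match spans the first base of Lhb.

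Total counts per library ran from 28256086 to 37988912, and 23862 to 24784 genes had at least 1 count. Pomc, the gene of the melanotrope hormone precursor, took 6.91% to 14.6% of a library, and the 8 anterior lobe genes together took 0.248% to 0.656%. By library, that share was 0.473% and 0.649% for WT, 0.504% and 0.388% for ACreb3l2, 0.248% and 0.254% for AXBP1, and 0.656% and 0.36% for both transgenes. Both AXBP1 libraries lay below the other 6, while the ACreb3l2/AXBP1 group held both the highest library of all and the lowest outside AXBP1. Counts of Creb3l2 and Xbp1 do not check the genotype labels, because the transgenes carry part of each coding sequence. Creb3l2 counts differed from WT by a log2 change of -0.08, -0.45 and -0.69 in ACreb3l2, AXBP1 and ACreb3l2/AXBP1, the last with an edgeR adjusted p of 0.0428, and Xbp1 counts by -0.46, 0.06 and 0.27, none of which passed.

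Levels between genes were compared in FPKM, which is scaled to gene length. Gh had a mean of 3781 FPKM over the 8 libraries (1559 to 6745) and ranked 12 of 48395 genes in the whole lobe. Prl followed at 907.4 FPKM (374.3 to 1167, rank 46) and Cga at 289 FPKM (158.1 to 517.4, rank 180). The beta chains were far lower, with Lhb at 42.7 FPKM (23.5 to 76.4), Fshb at 26.8 FPKM (13.0 to 48.9) and Tshb at 10.8 FPKM (3.80 to 14.0). Pou1f1 had 2.67 FPKM (1.22 to 4.46) and Ghrhr 1.20 FPKM (0.575 to 1.75). Among neighbours in this order the ranges of Gh and Prl did not overlap, nor did those of Cga and Lhb. Those of Prl and Cga overlapped, as did those of Lhb and Fshb, of Fshb and Tshb, of Tshb and Pou1f1 and of Pou1f1 and Ghrhr. The order therefore put the somatotrope and lactotrope hormones first, then the shared alpha chain, the gonadotrope and thyrotrope beta chains, and the transcription factor and receptor last. All 8 were detected in every library, from 33 counts of Ghrhr to 179506 counts of Gh. Raw counts of Ghrhr were 33 to 109 and of Pou1f1 63 to 253, and for the lowest of them, 33 counts, the exact 95% Poisson interval was 22.7 to 46.3, which covers counting error only.

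**Figure D1:**
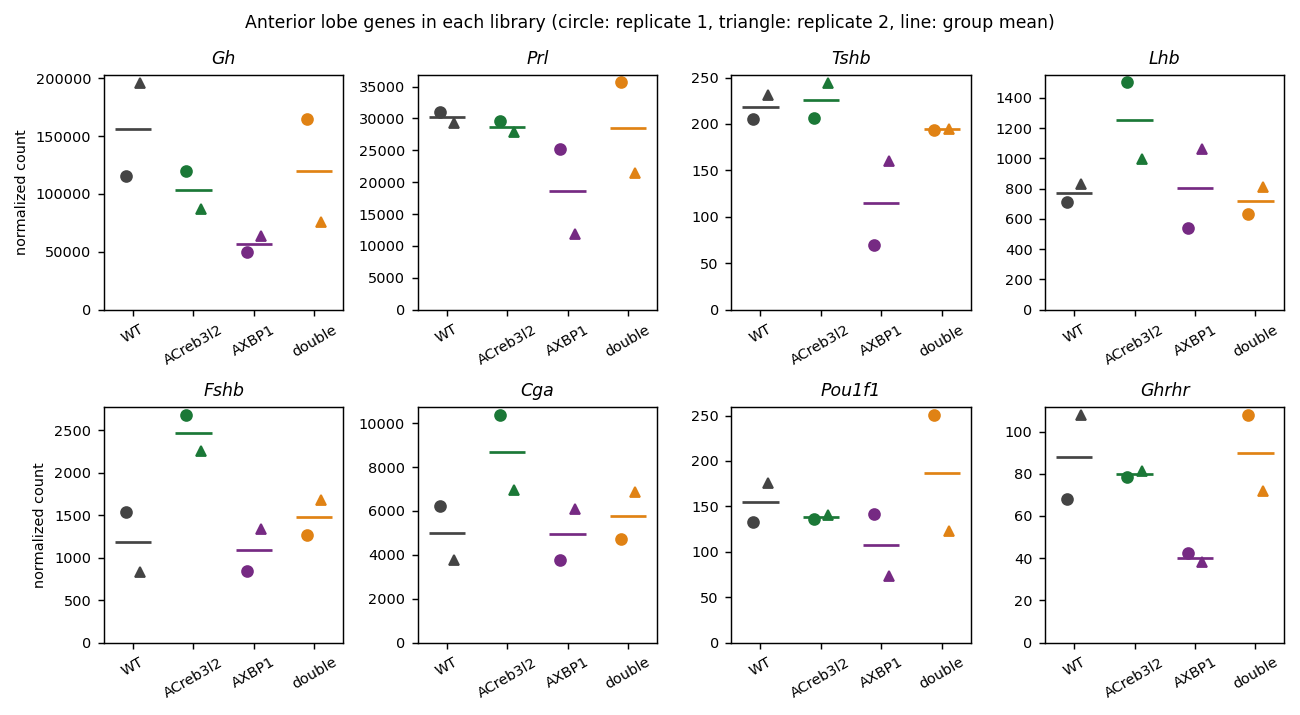
Normalized counts (y axis, linear and starting at 0, a separate scale for each gene) of the 8 genes by genotype (x axis; "double" is ACreb3l2/AXBP1), with a circle for replicate 1, a triangle for replicate 2 and a line at the mean of the 2 libraries. Gh, Prl, Tshb and Ghrhr lay below both WT libraries in both AXBP1 libraries, and Lhb, Fshb and Cga lay above both WT libraries in both ACreb3l2 libraries.

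Expression of Gh, which encodes growth hormone, is given first, as normalized counts, that is, after dividing by the library size times its TMM factor and rescaling to the mean depth. Gh (ENSMUSG00000020713, chr11:106300271-106301865, minus strand, in GENCODE M21 on mm10) had 115800 and 195800 in the WT pair, 120100 and 86830 with ACreb3l2, 49760 and 63660 with AXBP1, and 164300 and 75570 with both transgenes. Both AXBP1 libraries were lower than the other 6, and the remaining groups overlapped. The mean was 155800 ± 56540 in WT and 56710 ± 9831 in AXBP1 (SD, n = 2). For AXBP1, edgeR's quasi-likelihood test gave a log2 change of -1.46 ± 0.439 (standard error; adjusted p = 0.484), so the difference did not pass the threshold of 0.05. With ACreb3l2 it was -0.59 ± 0.431 (SE, edgeR adjusted p = 0.557), and with both transgenes -0.38 ± 0.431 (SE, edgeR adjusted p = 0.597). The ACreb3l2 value was -0.92 without WT replicate 1, -0.16 without WT replicate 2, -0.84 without ACreb3l2 replicate 1 and -0.37 without ACreb3l2 replicate 2, and the AXBP1 value -1.79 and -1.03 without WT replicate 1 and 2.

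Ghrhr, the somatotrope receptor (ENSMUSG00000004654, chr6:55376295-55388530, plus strand), had 68.0 and 108 normalized counts in the WT pair, 78.3 and 81.1 with ACreb3l2, 42.5 and 38.1 with AXBP1, and 107.8 and 71.9 with both transgenes. As for Gh, the AXBP1 pair was the lowest and did not overlap any other library. The 2 AXBP1 libraries were also close to each other, with a mean of 40.3 ± 3.11 against 88.0 ± 28.3 in WT (SD, n = 2). The log2 change in AXBP1 was -1.12 ± 0.301 (SE, edgeR adjusted p = 0.474). It was -1.42 without WT replicate 1, -0.75 without WT replicate 2 and -0.62 in limma on log2(FPKM + 1), where the pseudocount is close to the mean level of the gene (adjusted p = 0.151 and 0.860 in edgeR and 0.0944 in limma). In ACreb3l2 and ACreb3l2/AXBP1 it was -0.14 and 0.03, with edgeR adjusted p of 0.852 and 0.955.

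Prl, which encodes prolactin (ENSMUSG00000021342, chr13:27057570-27065205, plus strand), had 31030 and 29320 normalized counts in the WT pair, 29550 and 27810 with ACreb3l2, 25200 and 11910 with AXBP1, and 35690 and 21410 with both transgenes. WT and ACreb3l2 were tight and overlapped, whereas AXBP1 and ACreb3l2/AXBP1 each had 1 library far below its partner. Both AXBP1 libraries were below both WT libraries, but only replicate 2 was below all the others. The log2 change against WT was -0.07 ± 0.389 (SE) for ACreb3l2, -0.70 ± 0.392 for AXBP1 and -0.08 ± 0.389 for both transgenes, with edgeR adjusted p of 0.950, 0.575 and 0.913. The AXBP1 value rested on replicate 2, since it was -0.26 without that library and -1.34 without replicate 1 (edgeR adjusted p = 0.854 and 0.990).

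Pou1f1, the lineage factor of somatotropes, lactotropes and thyrotropes (ENSMUSG00000004842, chr16:65520511-65535005, plus strand), had 133 and 176 normalized counts in the WT pair, 136 and 141 with ACreb3l2, 141 and 72.7 with AXBP1, and 250 and 122 with both transgenes. No transgenic group was separated from WT. As for Prl, replicate 2 was the lower library in AXBP1 and in ACreb3l2/AXBP1. The log2 changes were -0.16 ± 0.386 (SE), -0.51 ± 0.394 and 0.27 ± 0.380 in ACreb3l2, AXBP1 and ACreb3l2/AXBP1, with edgeR adjusted p of 0.881, 0.647 and 0.670. In AXBP1 the change was -1.08 without replicate 1 and -0.12 without replicate 2 of that group, and -0.70 and -0.30 without WT replicate 1 and 2 (edgeR adjusted p = 0.990, 0.959, 0.510 and 0.966).

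Tshb, the thyrotropin beta chain (ENSMUSG00000027857, chr3:102775465-102782718, minus strand), had 205 and 231 normalized counts in the WT pair, 206 and 245 with ACreb3l2, 70.2 and 161 with AXBP1, and 193.8 and 194.4 with both transgenes. The AXBP1 libraries were the lowest pair, but they differed 2.25-fold from each other, and here replicate 1 was the lower. The ACreb3l2/AXBP1 pair lay just below WT without overlap. Against WT, the log2 change was 0.05 ± 0.298 (SE) for ACreb3l2, -0.93 ± 0.313 for AXBP1 and -0.17 ± 0.299 for both transgenes, with edgeR adjusted p of 0.958, 0.484 and 0.741. In AXBP1 it was -0.44 without replicate 1 and -1.63 without replicate 2 (edgeR adjusted p = 0.990 and 0.386).

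Cga, the alpha chain shared by thyrotropin and the gonadotropins (ENSMUSG00000028298, chr4:34893779-34907370, plus strand), had 6226 and 3754 normalized counts in the WT pair, 10390 and 6974 with ACreb3l2, 3752 and 6097 with AXBP1, and 4699 and 6842 with both transgenes. The 2 ACreb3l2 libraries were the highest of the 8, and the other 3 groups overlapped one another. For ACreb3l2 the log2 change was 0.80 ± 0.397 (SE, edgeR adjusted p = 0.395), with 1.21 without WT replicate 1, 0.48 without WT replicate 2 and 0.48 without ACreb3l2 replicate 1. It was -0.02 ± 0.396 (SE) for AXBP1 and 0.21 ± 0.395 for both transgenes, with edgeR adjusted p of 0.989 and 0.762.

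Fshb, the beta chain of follicle-stimulating hormone (ENSMUSG00000027120, chr2:107056140-107059656, minus strand), had 1532 and 831 normalized counts in the WT pair, 2677 and 2261 with ACreb3l2, 844 and 1336 with AXBP1, and 1266 and 1684 with both transgenes. Its ACreb3l2 libraries were again the highest of the 8, with a mean of 2469 ± 294 against 1181 ± 495 in WT (SD, n = 2). This was the widest difference from WT among the 8 genes in ACreb3l2, at 1.06 ± 0.355 (SE) on the log2 scale, and did not pass (edgeR adjusted p = 0.219). The size of the change rested on which WT library was used. Without WT replicate 1 it was 1.57 (edgeR adjusted p = 0.0761), and without WT replicate 2 it was 0.69 (edgeR adjusted p = 0.499). In AXBP1 and ACreb3l2/AXBP1 the log2 change was -0.12 ± 0.358 and 0.32 ± 0.354 (SE), with edgeR adjusted p of 0.918 and 0.588.

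Lhb, the beta chain of luteinizing hormone (ENSMUSG00000100916, chr7:45420820-45421897, plus strand), had 715 and 831 normalized counts in the WT pair, 1506 and 996 with ACreb3l2, 543 and 1061 with AXBP1, and 630 and 808 with both transgenes. ACreb3l2 lay above WT in both libraries, but its lower library was below AXBP1 replicate 2. For ACreb3l2 the log2 change was 0.70 ± 0.350 (SE, edgeR adjusted p = 0.388), with 0.37 without ACreb3l2 replicate 1 and 0.97 without ACreb3l2 replicate 2. It was 0.05 ± 0.354 for AXBP1 and -0.10 ± 0.353 for both transgenes, with edgeR adjusted p of 0.970 and 0.875. Whether reads were counted by strand is not stated, and 138 of the 678 exonic bases of Lhb (20.4%) lie opposite exons of Ruvbl2. The same holds for 305 of 954 bases of Cga (32%), opposite Platr9, and for 136 of 3891 bases of Pou1f1 (3.5%), opposite Gm49631, so counts of these genes could include reads of the partner.

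**Figure D2:**
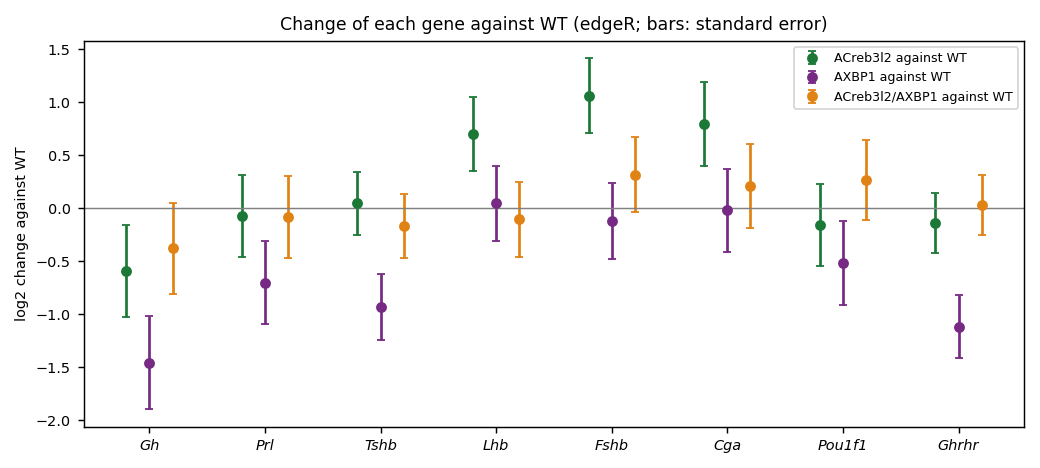
Log2 change against WT (y axis) of each of the 8 genes (x axis) in ACreb3l2 (green), AXBP1 (purple) and ACreb3l2/AXBP1 (orange), with bars of 1 standard error from the edgeR fit. The lowest points are Gh (-1.46) and Ghrhr (-1.12) in AXBP1 and the highest is Fshb (1.06) in ACreb3l2, and no point passed the adjusted threshold.

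Across the 8 genes, 0 of 8 were called in ACreb3l2 against WT, where edgeR called 3.04% of all genes tested (473). In AXBP1 against WT 0 of 8 were called, and edgeR called 0% of all genes (0, while 1554 had an unadjusted p under 0.05 and DESeq2 called 79). In ACreb3l2/AXBP1 against WT 0 of 8 were called, against 10.1% of all genes (1566). In a test of any difference among the 4 groups 0 of 8 were called, against 3.21% of all genes (500), and the lowest adjusted p of a member in edgeR was 0.141, for Ghrhr. Calls of members appeared where genes of low count were kept in the fit, with 4, 4, 1 and 8 of the 8 genes called in these same tests. In ACreb3l2 these were Gh, Lhb, Fshb and Cga, in AXBP1 Gh, Prl, Tshb and Ghrhr, and in ACreb3l2/AXBP1 Gh. That fit also called 1455, 628, 3209 and 2881 genes in all.

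Groups that do not overlap are common with 2 libraries each. The libraries did not overlap WT for 3 of 8 members in ACreb3l2, where this held for 45.5% of all genes, for 4 of 8 in AXBP1 against 46.2%, and for 1 of 8 in ACreb3l2/AXBP1 against 58.3%. The median log2 change of the 8 genes was -0.014 in ACreb3l2, with 4 higher and 4 lower, beside 0.01 over all genes tested. It was -0.608 in AXBP1, with 1 higher and 7 lower, beside 0.001, and -0.024 in ACreb3l2/AXBP1, with 4 higher and 4 lower, beside 0.012. In whole lobes, fewer cells of a type, less RNA per cell and less anterior lobe tissue carried over at dissection cannot be told apart. The amount carried over was not tested.

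The spread between libraries of 1 genotype was wide for most of the 8 genes. The biological coefficient of variation, edgeR's estimate of the spread between replicates beyond counting error, was 0.294 for Gh, 0.272 for Cga, 0.269 for Prl and 0.266 for Pou1f1. The median gene tested had 0.095. It was 0.246 for Fshb, 0.243 for Lhb, 0.21 for Tshb and 0.192 for Ghrhr, and these values put all 8 genes between the 90.9 and the 98.4 percentile of genes tested. Spread falls with level, and the trend for genes of the same level was 0.0874 to 0.0978 for Gh, Prl, Lhb, Fshb and Cga, 0.157 for Pou1f1, 0.146 for Tshb and 0.188 for Ghrhr, so Ghrhr (0.192) lay close to its trend. Over the 8 libraries, the highest normalized count was 3.94 times the lowest for Gh and 2.77 times for Cga, the ends of the range for these genes.

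The libraries of a group did not differ alike for all 8 genes. In ACreb3l2/AXBP1, replicate 1 over replicate 2 was 1.12 on the log2 scale for Gh, 1.02 for Pou1f1, 0.74 for Prl and 0.57 for Ghrhr. The gonadotrope genes had the reverse sign there, at -0.54 for Cga, -0.41 for Fshb and -0.36 for Lhb, and Tshb was at 0.00. The median size of this difference over all genes was 0.151, so all but Tshb were beyond it.

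In AXBP1 the log2 ratio of replicate 1 to replicate 2 was 1.08 for Prl and 0.94 for Pou1f1. Cga, Fshb and Lhb were again opposite, at -0.70, -0.66 and -0.96, and Tshb had -1.17. Here Gh had the opposite sign to Prl and Pou1f1 (-0.36) and Ghrhr the same sign but a smaller ratio (0.15), beside a median size of 0.0934 over all genes. Tshb, Prl and Lhb were at the 99.56, 99.45 and 99.18 percentile of all genes for the size of their difference in this group. In WT the log2 ratio was -0.76 for Gh, -0.65 for Ghrhr and -0.39 for Pou1f1, against 0.88 for Fshb and 0.73 for Cga, with Lhb (-0.22), Tshb (-0.17) and Prl (0.08) near the median size of 0.161. The ACreb3l2 group had no such split, with Cga, Lhb, Gh and Fshb at 0.58, 0.60, 0.47 and 0.24, Tshb at -0.24 and the other 3 genes within 0.09 of 0.

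**Figure D3:**
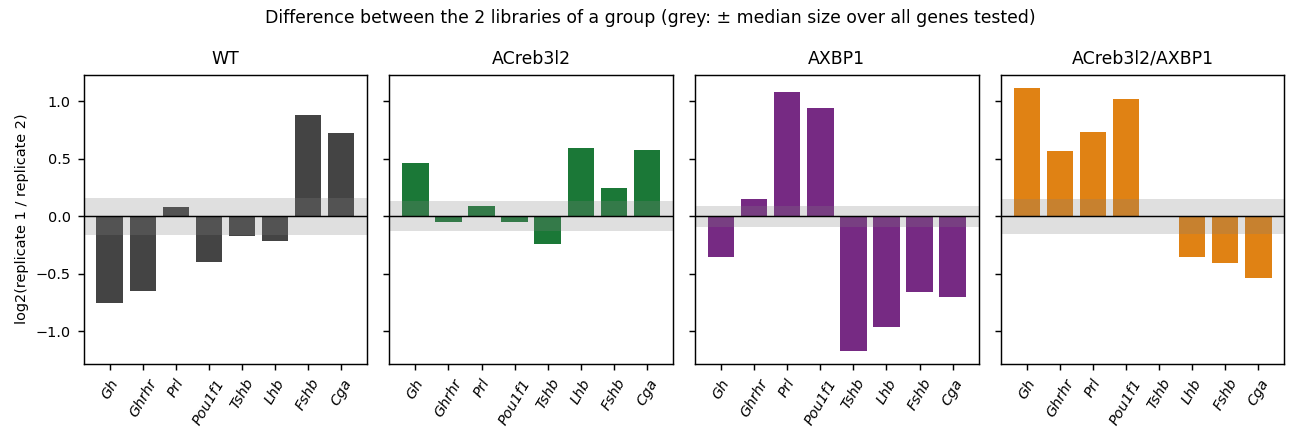
Log2 ratio of replicate 1 to replicate 2 (y axis) for each of the 8 genes (x axis) in each genotype (panel), with a grey band for the median size of this ratio over all genes tested. In ACreb3l2/AXBP1 the bars of Gh, Ghrhr, Prl and Pou1f1 point up (0.57 to 1.12) and those of Lhb, Fshb and Cga down (-0.36 to -0.54), and in AXBP1 Prl and Pou1f1 (1.08 and 0.94) point away from Tshb, Lhb, Fshb and Cga.

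Pearson's correlation of log2 CPM (counts scaled to library size) over the 8 libraries describes the same groups. These points share libraries and depth, and the values are a description with n = 8. Fshb and Cga had r = 0.961, Lhb and Cga 0.8 and Lhb and Fshb 0.723. Among 15579 other genes tested, Cga ranked 3 in likeness to Fshb. Prl and Pou1f1 had r = 0.889, Gh and Ghrhr 0.887, Pou1f1 and Ghrhr 0.795 and Prl and Ghrhr 0.758, and Ghrhr ranked 27 of 15579 in likeness to Gh. Between the sets the values were low or negative, at 0.113 for Gh and Lhb, -0.008 for Gh and Fshb, -0.062 for Gh and Cga, -0.36 for Pou1f1 and Cga and -0.423 for Pou1f1 and Lhb. Tshb stood with both, at 0.694 with Ghrhr, 0.685 with Gh, 0.524 with Lhb and 0.522 with Fshb, although it was only 0.23 with Prl and 0.15 with Pou1f1.

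**Figure D4:**
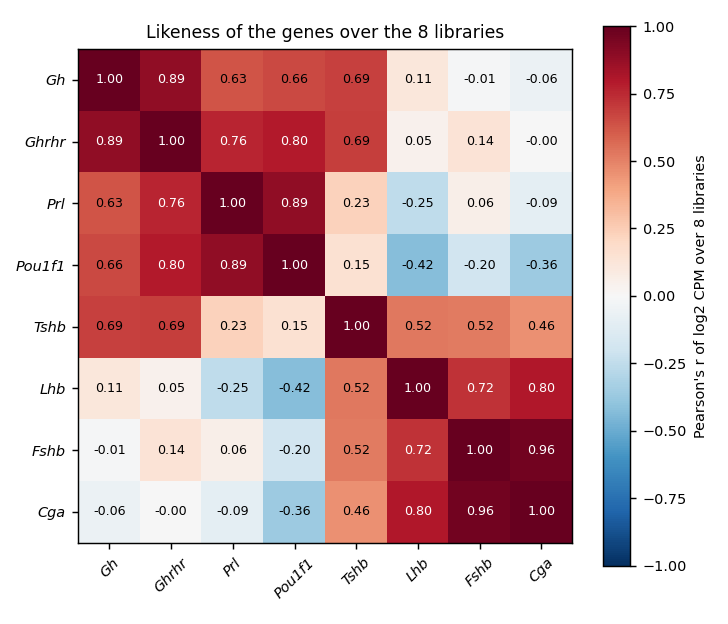
Pearson's r of log2 CPM over the 8 libraries for each pair of the 8 genes (both axes), from blue (-1) through white (0) to red (1), with r printed in each cell. Gh, Ghrhr, Prl and Pou1f1 form 1 block (0.63 to 0.89), Lhb, Fshb and Cga another (0.72 to 0.96), and the values between the blocks run from -0.42 to 0.14.

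Ratios within a library do not depend on its depth. The FPKM ratio of Cga to Fshb ran from 8.50 to 12.5 over the 8 libraries, a 1.47-fold range, although each gene alone varied 2.77- and 3.22-fold in normalized counts. Prl to Pou1f1 ran from 261.7 to 426.4 (1.63-fold), Gh to Ghrhr from 2335 to 3866 (1.66-fold) and Cga to Lhb from 4.44 to 8.56 (1.93-fold). Not every ratio within a cell type or lineage was as steady, since Lhb to Fshb ran from 1.24 to 2.77 (2.23-fold) and Gh to Pou1f1 from 670.8 to 2216 (3.3-fold). Among ratios across cell types, Gh to Tshb ran from 217.8 to 524 (2.41-fold). Gh to Prl was 3.79 and 6.72 for the WT pair, 4.10 and 3.17 for ACreb3l2, 2.01 and 5.40 for AXBP1, and 4.68 and 3.55 for both transgenes, a 3.35-fold range. The lowest and the next highest of these ratios were both from AXBP1. Gh to Cga ran from 7.70 to 38.4, a 4.99-fold range, with WT replicate 2 and ACreb3l2/AXBP1 replicate 1 far above the rest.

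**Figure D5:**
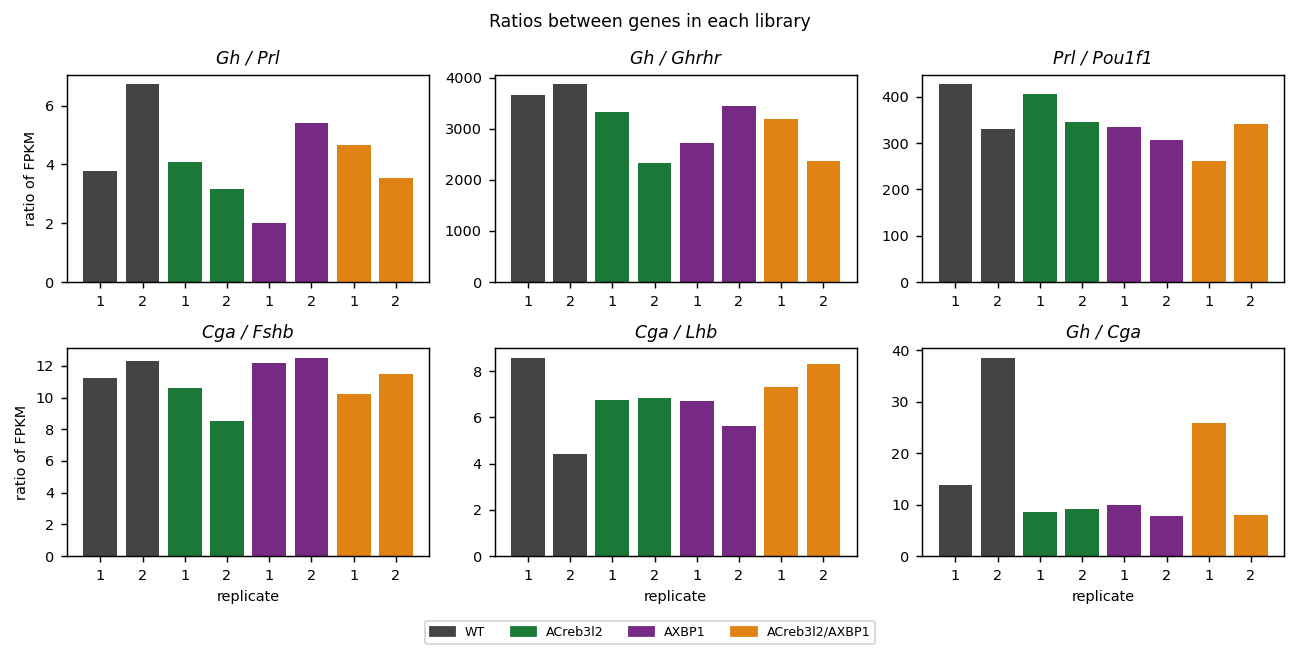
Ratio of the FPKM of 2 genes (y axis, linear and starting at 0) in each of the 8 libraries (x axis, replicate number; colour, genotype) for 6 pairs of genes. Cga/Fshb is the steadiest (8.50 to 12.5), and Gh/Cga the least steady (7.70 to 38.4).

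The genes whose pattern over the 8 libraries was most like a member's were named by their r. For Gh these included Stoml2 (0.981), Pappa2 (0.971), Oas3 (0.966) and Polr2i (0.953), and for Prl Pdcd5 (0.934), Pik3r6 (0.932), Slamf7 (0.924), Syt6 (0.909) and Chchd3 (0.908). For Pou1f1 they were Lzts1 (0.957), Rrnad1 (0.949), Rxrg (0.935), Dcpp2 (0.934) and Grcc10 (0.921), and for Tshb P4ha1 (0.972), Wdyhv1 (0.942), Ptges3 (0.93), Hsp90aa1 (0.929) and Gm15459 (0.924). Each r rests on 8 libraries and was among the highest of 15579 genes, so these values are a description only.

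Other anterior lobe genes were read from 2 lists, which include factors that the intermediate lobe also expresses, such as Lhx3 and Pitx1. Of 14 listed transcription factor genes 9 were tested, and 0, 0 and 1 were called in the ACreb3l2, AXBP1 and double transgenic comparisons, with median log2 changes of 0.03, 0.04 and -0.081, beside 0.01, 0.001 and 0.012 over all genes. In AXBP1 5 of the 9 were higher and 4 lower than in WT. The call was Lhx3, a LIM homeodomain factor of all pituitary lineages that melanotropes also express, which fell by 0.48 on the log2 scale in ACreb3l2/AXBP1 (SE 0.116, edgeR adjusted p = 0.0314) and lost the call under 6 of 15 alternatives, among them library size alone and the fits without WT replicate 2, either AXBP1 library or ACreb3l2/AXBP1 replicate 2 (edgeR adjusted p up to 0.21). Of 10 listed receptor genes 8 were tested and 0, 0 and 1 were called, with medians of 0.358, 0.324 and 0.268, and 7 of the 8 were higher than in WT in AXBP1. Here the call was Esr1, the oestrogen receptor alpha, which rose by 0.64 in ACreb3l2/AXBP1 (SE 0.163, edgeR adjusted p = 0.0430) and lost the call under 9 of 15 alternatives, among them both FPKM fits and those without WT replicate 2, ACreb3l2/AXBP1 replicate 2 or any 1 library of the single transgenic groups (adjusted p up to 0.272 in edgeR or limma).

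Gonadotrope genes outside the 8 were looked at after their values were seen. Gnrhr, the receptor for gonadotropin-releasing hormone, had 135 and 98.2 normalized counts in the WT pair, 197 and 208 with ACreb3l2, 165 and 163 with AXBP1, and 126 and 176 with both transgenes. Its ACreb3l2 libraries were the highest of the 8, as for Fshb and Cga, at 0.79 ± 0.213 above WT on the log2 scale (SE, edgeR adjusted p = 0.0872). Nr5a1, the gonadotrope nuclear receptor, had 89.4 and 111 in the WT pair, 176 and 107 with ACreb3l2, 180 and 121 with AXBP1, and 66.3 and 93.2 with both transgenes. The ACreb3l2 pair of Nr5a1 straddled WT replicate 2, and its log2 change was 0.51 ± 0.297 (SE, edgeR adjusted p = 0.427). In AXBP1 both Nr5a1 libraries were above WT, at 0.59 ± 0.297 (SE, edgeR adjusted p = 0.532). Gata2 and Isl1, factors of gonadotropes and thyrotropes, were at 0.03 ± 0.214 and -0.03 ± 0.194 in ACreb3l2 (SE, edgeR adjusted p = 0.963 and 0.954).

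Markers of other cells in the lobe were set beside the members. The labels name melanotropes as the cell type, and 7 melanotrope markers summed to 2199000 to 5504000 normalized counts per library. The summed normalized counts of the 8 anterior lobe genes ran from 155700 to 231000 for WT, 125300 to 164600 for ACreb3l2, 80350 to 84340 for AXBP1 and 106700 to 207100 for both transgenes. In AXBP1, where the members were lowest, 5 of 5 endothelial markers were higher than in WT, with sums of 5239 to 6624 against 3976 to 4904, as were 6 of 6 fibroblast and pericyte markers, with 28020 to 31650 against 22060 to 27300. The same markers were higher in ACreb3l2/AXBP1, where 4 of the 8 members were higher and 4 lower than in WT, with 5 of 5 endothelial markers (5594 to 6588) and 5 of 6 fibroblast and pericyte markers (27290 to 30620). In ACreb3l2 it was 2 of 5 (3236 to 5616) and 2 of 6 (21340 to 27680). No marker of either list was called, no marker was at 0 in all libraries, and their part in the result was not tested. Melanotrope marker sums overlapped WT (3691000 to 5504000) in ACreb3l2 (3656000 to 4065000) and AXBP1 (3395000 to 3981000). In ACreb3l2/AXBP1 they lay below WT (2199000 to 2997000). By gene, the log2 change was lower than in WT for 7 of 7 melanotrope markers in ACreb3l2 (median -0.276, with Drd2 at -0.01 and Pax7 at -0.03). It was lower for 6 of 7 markers in AXBP1 (median -0.236) and 7 of 7 in ACreb3l2/AXBP1 (median -0.662). Of these, Tbx19, the factor that drives POMC cell identity, was called in ACreb3l2/AXBP1, where it fell by 0.88 (SE 0.185, edgeR adjusted p = 0.0245), a call lost under 3 of 15 alternatives, without WT replicate 1, WT replicate 2 or ACreb3l2/AXBP1 replicate 2 (edgeR adjusted p up to 0.146). Sox2, a stem cell factor of the gland, rose there by 0.37 (SE 0.0928, edgeR adjusted p = 0.0354), a call lost under 8 of 15 alternatives, among them both FPKM fits and those without WT replicate 2, ACreb3l2 replicate 1, either AXBP1 library or ACreb3l2/AXBP1 replicate 2 (adjusted p up to 0.272 in edgeR or limma). No gene was called in the lists of pars tuberalis (2 tested), pituicytes and astroglia (7), hypothalamic axons (2), macrophages (5) and erythroid cells (5). Of the pituicyte and astroglial markers 7, 6 and 7 of 7 were higher than in WT in ACreb3l2, AXBP1 and the double transgenic group (medians 0.334, 0.235 and 0.301). Erythroid markers were higher for 5 of 5 genes in ACreb3l2 (0.449), where Lhb, Fshb and Cga lay above WT, and lower for 5 of 5 in AXBP1 (-0.187) and in the double transgenic group (-0.243). Their sums overlapped WT (12990 to 27690) in ACreb3l2 (19300 to 36050), AXBP1 (15070 to 20710) and ACreb3l2/AXBP1 (16220 to 18790). ACreb3l2 replicate 2 lay between the 2 WT libraries for all 5 erythroid genes. Macrophage markers were higher for 5 of 5 genes in ACreb3l2 (0.146), for 3 of 5 in AXBP1 (0.011) and for 2 of 5 with both transgenes (-0.035). The ACreb3l2 sums of these markers (9724 to 13330) overlapped WT (9683 to 10820). There, replicate 2 lay below both WT libraries for C1qa, C1qb and Aif1, and between them for Cx3cr1 and Csf1r. The part of these lists in the members' values was not tested.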

How the data were processed

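RNA from pools of neuro-intermediate lobes was sequenced in 8 libraries, 2 in each of 4 groups, which were taken from the labels. The authors deposited raw counts per Ensembl gene, made according to the study's methods with Trimmomatic, Tophat (mm10) and HTSeq-count without normalization. The authors also deposited FPKM values, and the software list includes cufflinks. That list names a different aligner from the methods text, and the annotation release and strand setting are not given in the sources used here. The labels state ribosomal depletion and the methods an mRNA kit.

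Genes with a mean median-ratio normalized count above 20 were fitted in edgeR 4.0.16 (R 4.3.3) with TMM factors (0.913 to 1.1), 1 mean per group over all 8 libraries and the robust quasi-likelihood test. Adjusted p-values are Benjamini and Hochberg's over the 15580 genes of a comparison, and a gene was called when its adjusted p was under 0.05. With 2 libraries against 2 no exact permutation test can reach 0.05, and no permutation test was run. The script was tested on simulated counts, drawn at the trend of spread for genes of the same level. The members' own spread lay above that trend (0.294 against 0.0956 for Gh). The simulation therefore does not show whether changes of the members could be called. Likeness was Pearson's r of log2 CPM (prior count 2), and the 5 genes of highest r were named for Gh, Prl, Tshb and Pou1f1, except that 1 gene is not reported here. The text names all 8 members, genes called in the lists, and others where stated. Members and lists were chosen with earlier results of these data known. In all, 15 alternatives were run, with DESeq2 1.42.0 and with limma 3.58.1 on log2(FPKM + 0.1) and log2(FPKM + 1) among them. Promoters came from RefSeq (GRCm38.p6) and loci from GENCODE M21. The FPKM table splits 51 genes over loci, which were summed.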

Additional observations from a re-analysis of the deposited data

How the results depend on the processing

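Genes called in ACreb3l2 against WT (473) were 304 with library size alone as the scaling, 1455 with no filter on low counts, 755 in DESeq2, and 221 and 225 in limma on FPKM with a pseudocount of 0.1 and 1. Those in AXBP1 (0) were 628 with no filter, 79 in DESeq2, and 1 and 4 on FPKM. Those in ACreb3l2/AXBP1 (1566) were 3209 with no filter and 889 and 901 on FPKM, and those in the test of all 4 groups (500) were 266 with library size alone, 2881 with no filter, 1398 in DESeq2, and 209 and 221 on FPKM. Leaving out 1 library at a time gave 153 to 618 genes in ACreb3l2, 0 to 9 in AXBP1, 218 to 2084 in ACreb3l2/AXBP1 and 221 to 718 over all groups, and the library left alone in its group was assumed to vary like the other groups. Library size alone put the median of all genes at 0.17 in ACreb3l2/AXBP1, against 0.012, and turned the split of calls from 477 higher and 1089 lower to 1104 higher and 546 lower. The replicate block gave 321, 3 and 1113 genes in the 3 comparisons and 310 over all groups, and called 0 of the 8 members. Under it Lhx3, Esr1 and Sox2 lost their calls in ACreb3l2/AXBP1 (edgeR adjusted p = 0.0519, 0.0689 and 0.0615). Over all genes tested, replicates with the same number did not deviate together (r from -0.197 to 0.0887). Such an r does not cover single genes. From AXBP1 to ACreb3l2/AXBP1, the log2 ratio of replicate 1 to 2 kept its sign for Prl (1.08 and 0.74) and turned for Gh (-0.36 and 1.12). Whether libraries of the same number were prepared together was not tested.

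Members called were 4 of 8 in ACreb3l2, 4 in AXBP1, 1 in ACreb3l2/AXBP1 and 8 over all 4 groups with no filter, and 0 under every other alternative, except that without AXBP1 replicate 2 Tshb was called over all groups (edgeR adjusted p = 0.0305, 0 to 1 members over the libraries left out). The cause was not tested. Small changes turned sign. With library size alone Cga in AXBP1 was 0.0218, and Prl and Lhb in ACreb3l2/AXBP1 were 0.0683 and 0.0669, and on FPKM, where the median of all genes in AXBP1 was -0.16 and -0.13, Lhb in AXBP1 was -0.18 and -0.17. With 1 library left out, log2 changes in ACreb3l2 ran from -0.0735 to 0.17 for Tshb, -0.35 to 0.0525 for Pou1f1 and -0.44 to 0.23 for Ghrhr, and in AXBP1 from -0.51 to 0.46 for Lhb, -0.50 to 0.39 for Fshb and -0.41 to 0.39 for Cga. In ACreb3l2/AXBP1 they ran from -1.04 to 0.0675 for Gh, -0.50 to 0.23 for Prl, -0.30 to 0.0643 for Lhb, -0.0590 to 0.83 for Fshb, -0.11 to 0.62 for Cga, -0.33 to 0.69 for Pou1f1 and -0.29 to 0.39 for Ghrhr. Gh, Prl, Tshb, Pou1f1 and Ghrhr in AXBP1 and Lhb, Fshb and Cga in ACreb3l2 kept their sign under all 15 alternatives. So did Gh and Prl in ACreb3l2 and Tshb in ACreb3l2/AXBP1, where the values of Prl ran from -0.12 to -0.0002. All of these but Pou1f1 in AXBP1 and Gh and Prl in ACreb3l2 did not overlap WT. Leaving out 1 library could not turn the sign of such a change, so a kept sign adds little.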

Other observations

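The values here were looked at after the others were known. Ghsr, the ghrelin receptor of somatotropes, was below the filter on low counts and had 18.9 ± 3.54 normalized counts in WT, 9.16 ± 6.50 with ACreb3l2, 6.35 ± 0.810 with AXBP1 and 13.7 ± 4.36 with both transgenes (SD, n = 2). Its mean was lowest in AXBP1, as were those of Gh and Ghrhr, and it was not tested. Unlike for those genes, the lowest library was ACreb3l2 replicate 2 (4.57, from 4 counts), below both AXBP1 libraries (6.92 and 5.77, from 7 and 5 counts). Trhr, the receptor for thyrotropin-releasing hormone, had 90.2 ± 44.2 in WT and 122 ± 46.9 in AXBP1, the reverse order of Tshb, with a spread wider than the difference.

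Over the 8 libraries, the gene most like Ghrhr was Car10 (r = 0.982, 18.5 to 59.3 normalized counts), and Polr2i was among the 5 most alike for both Ghrhr (0.94) and Gh (0.953). Tmem91 and Ywhah were among the 5 most alike for both Cga (0.978 and 0.964) and Fshb (0.96 and 0.975), which are themselves alike, so the lists do not stand apart from each other. Hmgn3 was the gene most like Cga (0.982) and Brf2 the gene most like Lhb (0.946).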
